A study of Rattus norvegicus with 12 samples.

Results

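PCT(Spp1+) was 1 of 25 low-level clusters of kidney nuclei in the ZSF1 rat, and its name stands for proximal convoluted tubule with Spp1. Its members were every nucleus to which the authors' deposited annotation gives that name, 6762 of 217132 nuclei (3.11%). They came from all 12 rats, but 4152 came from a single untreated obese rat (RK9_4) and 1590 from a single sGCstim-treated rat (RK61_4), and the other 10 rats held between 25 and 246 each. PCT(Spp1+) took 0.192 to 0.260% of all nuclei in the 3 lean rats, and in 8 of the 9 obese rats its share was above that of every lean rat. In limma the difference did not pass the threshold among all nuclei. It passed among nuclei of at least 1000 UMIs (18.8% of members) or of at most 1% mitochondrial UMIs (15.1% of members). How many other clusters passed under these filters is not given here, so the filtered results cannot be read as particular to PCT(Spp1+). In narrower depth ranges above 1000 UMIs the proximal tubule shares of obese and lean rats overlapped.

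The proximal tubule reabsorbs most of the filtered salt, glucose, amino acids and bicarbonate, and its convoluted first part does the larger share of that work with the help of many mitochondria. Spp1 encodes osteopontin, a secreted phosphoprotein that binds integrins and calcium. In a healthy kidney osteopontin is made mainly by the distal parts of the nephron, and injured proximal tubule cells are known to begin making it. In single nuclei, mitochondrial transcripts come from outside the nucleus, so their percentage is commonly read as a measure of cytoplasmic carry-over.

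All rats were male ZSF1 rats (ZSF1-LeprfaLeprcp/Crl), a strain in which the obese form lacks a working leptin receptor and develops diabetes and kidney disease. Obese rats received, from an age of 13 to 14 weeks and for 12 weeks, vehicle (called untreated obese here), the soluble guanylate cyclase activator BAY 1101042 (sGCact) at 3 mg/kg 2 times a day, or the soluble guanylate cyclase stimulator BAY 1165747 (sGCstim) at 3 mg/kg 1 time a day. Soluble guanylate cyclase makes cyclic GMP, and the activator acts on the haem-free enzyme while the stimulator acts on the haem-containing one. Lean rats received neither drug nor vehicle, so genotype and dosing cannot be told apart between lean and obese rats. Each group had 3 sequenced rats, out of 6 lean rats and 10 rats per obese group in the study.

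The 12 rats gave 10488 to 43484 retained nuclei each, with 11898496 to 49272672 unique molecular identifiers (UMIs, the number of transcript molecules counted) per rat. The proximal tubule type took 32.6 to 92.1% of the nuclei of a rat. The retained nuclei outnumbered the 10000 stated as loaded in all 12 rats, most of all in RK9_4, where 40028 of 43484 were typed as proximal tubule. Among PCT(Spp1+) nuclei, 4 of 6758 barcodes occurred in more than 1 rat (8 nuclei), and among all nuclei 5832 of 211194 did (2.76%). The count for PCT(Spp1+) did not look for matches outside the cluster. Doublets had been removed by the authors with DoubletFinder, and no further caller was run. RK9_4 and RK61_4 hold most of the members, so values pooled over nuclei are mainly theirs, and the share and depth contrasts were also fitted without them.

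Levels of single genes were not analysed here, so neither the Spp1 of the name nor any other marker of the proximal convoluted tubule was checked. The high-level type was proximal tubule for 6740 of the 6762 nuclei. The remaining 22 nuclei were typed as loop of Henle (LOH), and RK16_4 held 8 of them while RK9_4 and RK61_4 held none. On the deposited two-dimensional map, 53.4% of the 30 nearest neighbours of a PCT(Spp1+) nucleus belonged to PCT(Spp1+), 32.5% to PST(S2) and 12.8% to PCT. Counted by rat, the part of PCT(Spp1+) itself was 55.6% in RK9_4 and 59.0% in RK61_4 and ran from 18.8 to 42.1% in the other 10 rats, and the median over the 12 rats was 36.3% for PCT(Spp1+), 36.9% for PST(S2) and 23.6% for PCT. PST(S2) is named for the second segment, in the straight part of the proximal tubule, and PCT for the convoluted part. The centre of PST(S2) lay 0.941 map units from the centre of PCT(Spp1+), and that of PCT 3.86 map units away, although the cluster shares its name with PCT. PTinj, the cluster named for injury, gave 0.926% of the neighbours. The other Spp1+ cluster, PST(Spp1+), gave none, and its centre was 12.8 map units away.

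Neighbours were searched among the nuclei of all 12 rats, and their make-up differed with the rat that the PCT(Spp1+) nuclei came from. In the lean rat RK1_4, PCT gave 42.9% of the neighbours of PCT(Spp1+) nuclei and PST(S2) 37.0%. In RK9_4, PCT gave 10.4% and PST(S2) 32.7%, and in RK61_4 PCT gave 10.9% and PST(S2) 29.3%. Over the 12 rats the PST(S2) part ranged from 29.3 to 57.9% and the PCT part from 10.4 to 42.9%. The map was made after batch correction over all rats, and distances on it are descriptions of that map alone.

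The share of PCT(Spp1+) among all nuclei was low and narrow in lean rats and spread widely in obese ones. In lean rats it was 0.192% in RK1_4, 0.257% in RK3_4 and 0.260% in RK5_4, a mean of 0.236 ± 0.039% (SD, n = 3). In untreated obese rats it was 0.237% in RK7_4, 1.40% in RK16_4 and 9.55% in RK9_4, a mean of 3.73 ± 5.07% (SD, n = 3). RK7_4 lay within the lean range, and the other 2 untreated obese rats lay above it. Under sGCact it was 0.744% in RK46_4, 0.875% in RK45_4 and 1.16% in RK43_4, a mean of 0.926 ± 0.212% (SD, n = 3). Under sGCstim it was 0.680% in RK57_4, 0.808% in RK58_4 and 6.83% in RK61_4, a mean of 2.77 ± 3.51% (SD, n = 3). All 6 treated rats lay above the 3 lean rats, and both treated groups overlapped the untreated obese group.

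Counted within the proximal tubule the order of the rats was much the same. Lean rats held 0.481, 0.563 and 0.638% of proximal tubule nuclei in PCT(Spp1+), and untreated obese rats 0.312, 3.55 and 10.4%, from RK7_4 to RK9_4. The sGCact rats held 1.25, 2.00 and 2.23%, and the sGCstim rats 1.26, 1.79 and 9.68%. Within this denominator RK7_4 was the lowest of the 12 rats. Its 95% Wilson interval of 0.212 to 0.461%, from 25 nuclei, covers counting error alone, whereas that of RK9_4 was 10.1 to 10.7%.

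**Figure D1:**
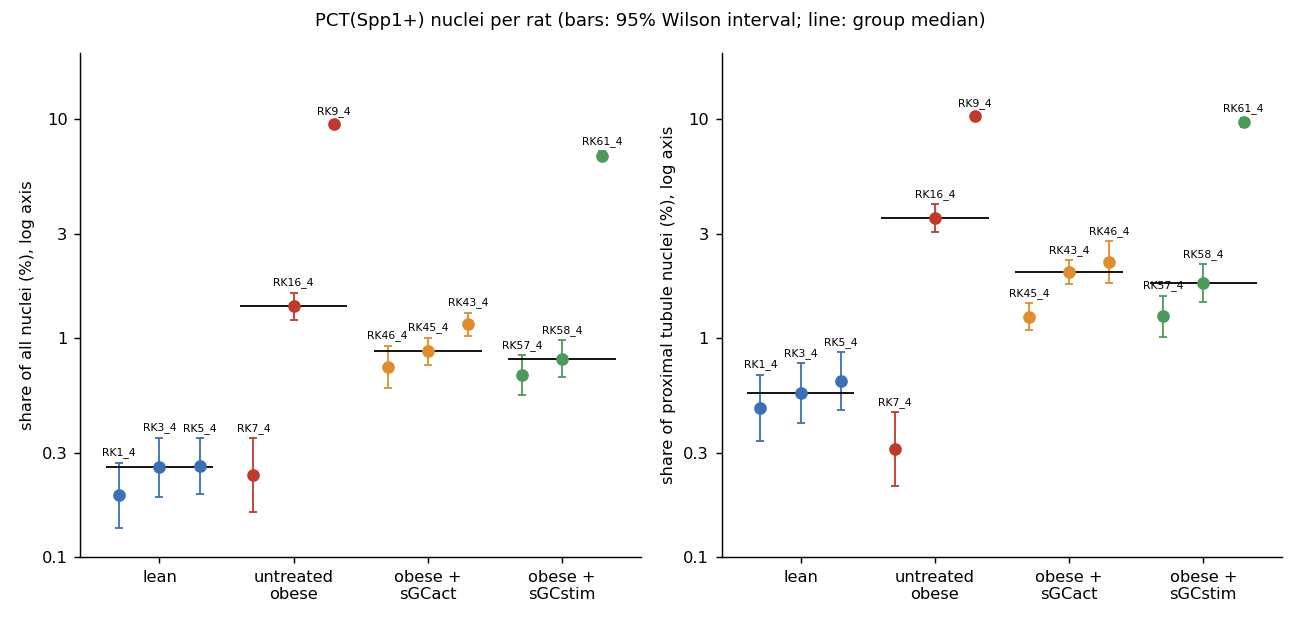
Share of PCT(Spp1+) among all nuclei (left) and among proximal tubule nuclei (right) in each of 12 rats, in percent on log axes, with 95% Wilson intervals as bars and the group median as a line. The 3 lean rats sit between 0.192 and 0.260% of all nuclei, RK7_4 sits beside them, and RK9_4 and RK61_4 stand above the other obese rats.

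Untreated obese and lean rats were compared to ask whether the disease model changes the share of the cluster. The log odds of PCT(Spp1+) among all nuclei were higher by 1.87 (SE 0.832, 95% interval 0.069 to 3.67), an odds ratio of 6.47, with a limma p of 0.043 and an adjusted p of 0.153 over 25 clusters. The share was higher in 7 of the 9 pairs of an obese and a lean rat, and the exact two-sided permutation test gave p = 0.3, where 3 rats against 3 cannot go below 0.1. In this contrast limma called 12% of the 25 clusters, and PCT(Spp1+), with the highest difference in log odds of all 25, was not among them. Within the proximal tubule the difference was 1.44 (SE 0.838, 95% interval -0.43 to 3.30, limma adjusted p = 0.467 over 8 clusters, exact p = 0.4), and limma called 12.5% of the clusters.

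Pooling the 3 obese groups against lean rats gave the same direction with more rats. The difference in log odds among all nuclei was 1.71 (SE 0.679, 95% interval 0.242 to 3.18), with a limma p of 0.026 and an adjusted p of 0.161, and limma called 4% of the 25 clusters. The obese rat was higher in 25 of 27 pairs, and the exact permutation test of 9 rats against 3 gave p = 0.027, or 0.127 after Benjamini-Hochberg adjustment over the 7 exact tests of this contrast. Within the proximal tubule the difference was 1.41 (SE 0.684, 95% interval -0.11 to 2.93, limma adjusted p = 0.262), with 12.5% of 8 clusters called, 24 of 27 pairs higher and an exact p of 0.036 (adjusted 0.127). PCT(Spp1+) had the highest difference among the 8 proximal tubule clusters as well.

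Without RK9_4 and RK61_4 the share remained higher in obese rats and the difference was smaller. The log odds among all nuclei then differed by 1.14 (SE 0.367, limma adjusted p = 0.051) for the 3 obese groups against lean, and by 0.904 (SE 0.483, adjusted p = 0.342) for untreated obese rats against lean. RK7_4 had the lowest PCT(Spp1+) share within the proximal tubule and was the only obese rat within the lean range of all nuclei. Without RK7_4 alone the difference of untreated obese against lean rats was 2.79 (limma adjusted p = 0.044). With RK7_4, RK9_4 and RK61_4 all left out the 3 obese groups differed from lean by 1.43. In that fit RK16_4 is the only untreated obese rat and is assumed to vary like the others. RK7_4 had the lowest share of the obese rats and RK9_4 and RK61_4 the highest, so leaving out all 3 also narrowed the spread. In limma untreated obese against lean rats was thus not called with all 12 rats and passed the threshold without RK7_4. Leaving out RK7_4 removes the only obese share inside the lean range, so that fit is not read as a call. How many of the other clusters passed in it is not given here. With all 12 rats edgeR with TMM scaling called it (4.22 on the natural log scale, adjusted p = 0.022), and edgeR with the total nuclei as library size did not (2.76, adjusted p = 0.058). Among proximal tubule nuclei, leaving out RK9_4 and RK61_4 gave 0.934 (limma adjusted p = 0.177) for the 3 obese groups and 0.648 (adjusted p = 0.530) for untreated obese rats.

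Neither drug was called against untreated obese rats. The log odds among all nuclei differed by -0.51 (95% interval -2.31 to 1.29, limma adjusted p = 0.627) for sGCact and by 0.04 (95% interval -1.76 to 1.84, adjusted p = 0.961) for sGCstim, and limma called 0% of the 25 clusters in both contrasts. The sign of both depended on single rats: without RK9_4 the sGCact difference was 0.45, and the sGCstim difference was -0.72 without RK61_4 and -0.88 without RK7_4. The sign for sGCstim also turned on other scales with all rats. Between sGCact and sGCstim, which were given at different intervals, the difference was -0.55 (95% interval -2.35 to 1.24, adjusted p = 0.964), with 0% of clusters called. The intervals span odds ratios from 0.099 to 3.62 for sGCact against untreated obese rats and from 0.173 to 6.30 for sGCstim. A several-fold effect in either direction was thus not excluded with these rats. Among proximal tubule nuclei the 3 differences were -0.28, 0.20 and -0.48, again with 0% of clusters called.

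**Figure D2:**
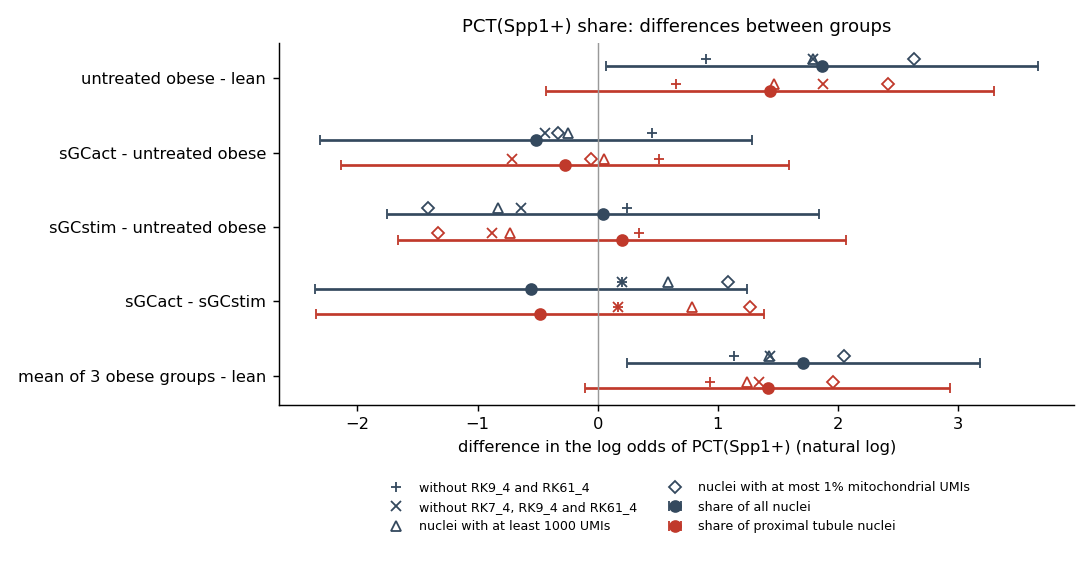
Differences in the log odds (natural log) of PCT(Spp1+) for 5 contrasts, as limma estimates with 95% intervals over 12 rats, among all nuclei (dark) and among proximal tubule nuclei (red), with open marks for the estimate without named rats or with filtered nuclei. All marks for the obese groups against lean lie above 0, and those for sGCact against sGCstim lie on both sides of it.

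The clusters next to PCT(Spp1+) did not follow its numbers. The rats with the most members had the fewest PST(S2) nuclei: RK9_4 held 359 (0.897% of its proximal tubule nuclei) and RK61_4 held 66 (0.402%), whereas PST(S2) took 8.17 to 35.4% in the other 10 rats. PCT(Spp1+) and PST(S2) together took 11.3% of the proximal tubule in RK9_4 and 10.1% in RK61_4, within the 8.48 to 37.7% of the other 10 rats. PCT was also sparse in both, at 6.65 and 8.34%, against 10.4 to 31.2% elsewhere. These shares are parts of 1 whole and are tied to each other.

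PST(Spp1+), the cluster that shares the Spp1 of the name, varied separately from PCT(Spp1+). RK9_4 held 4152 PCT(Spp1+) and 70 PST(Spp1+) nuclei, RK61_4 held 1590 and 6905, and the sGCact rats RK43_4 and RK45_4 held 246 and 189 against 2925 and 3040. RK16_4 held 184 and 364, and their shares of its proximal tubule nuclei were 3.55 and 7.34%. PTinj took 24.0% of the proximal tubule in RK16_4, the untreated obese rat with the second highest PCT(Spp1+) share, but 1.14% in RK9_4, the lowest of the 12 rats.

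**Figure D3:**
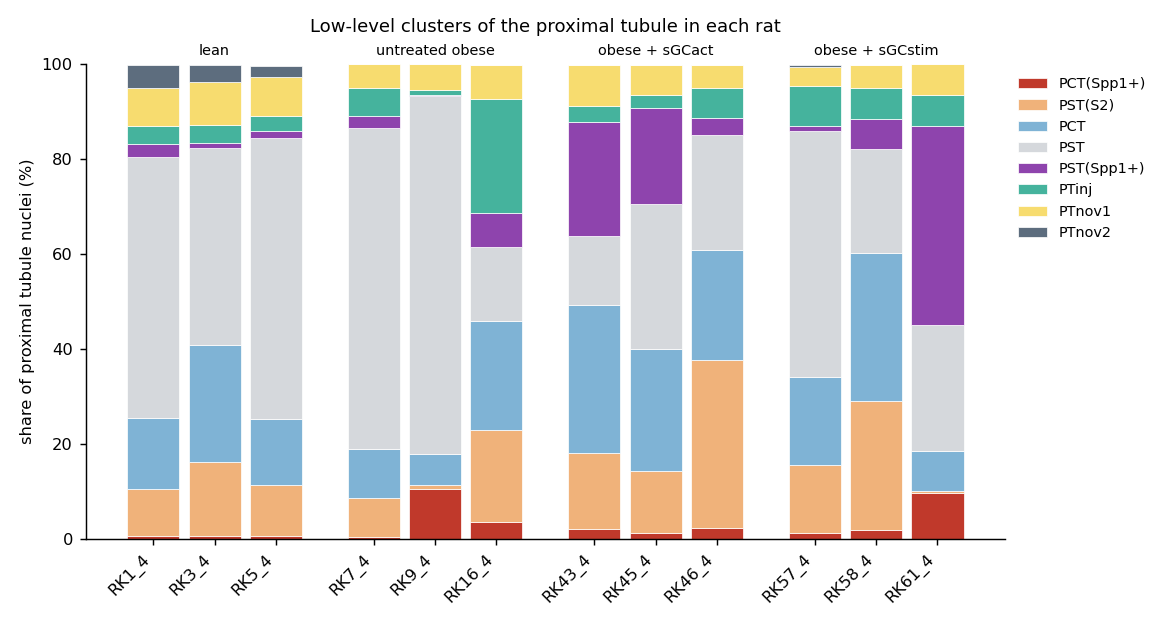
Share of the 8 low-level clusters among the proximal tubule nuclei of each of 12 rats, in percent, stacked. PCT(Spp1+), at the bottom, takes 10.4% in RK9_4 and 9.68% in RK61_4, where PST(S2) above it shrinks to 0.897 and 0.402%, and it takes 0.312 to 3.55% in the other 10 rats.

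Where PCT(Spp1+) sat along sequencing depth separated RK9_4 and RK61_4 from the other rats. In RK9_4, 12.2% of the 30923 proximal tubule nuclei under 1000 UMIs were PCT(Spp1+), and in RK61_4 it was 1526 of 10194. In the other 10 rats the cluster took 0 to 2.44% of the proximal tubule nuclei under 1000 UMIs, the highest in RK57_4. In RK1_4, RK3_4, RK46_4 and RK58_4 there was no PCT(Spp1+) nucleus under 1000 UMIs at all, among 104, 710, 445 and 554 proximal tubule nuclei. The share was highest in the range of 700 to 800 UMIs in RK9_4 (14.1%) and RK61_4 (17.6%). It was highest between 1000 and 1500 UMIs in RK16_4 (7.99%), RK43_4 (7.41%) and RK45_4 (7.94%).

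At 1500 UMIs and over the order was another one. There PCT(Spp1+) was 0.285% of the proximal tubule nuclei in RK9_4 and 0.0885% in RK61_4, the latter the lowest of the 12 rats. It was 0.602, 0.626 and 0.240% in the lean rats, 3.13% in RK46_4, 2.22% in RK58_4 and 2.09% in RK16_4. RK7_4 (0.868%) and RK43_4 (0.695%) lay closer to the lean rats, and RK57_4 (0.509%), RK45_4 (0.295%) and RK9_4 lay within their range.

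**Figure D4:**
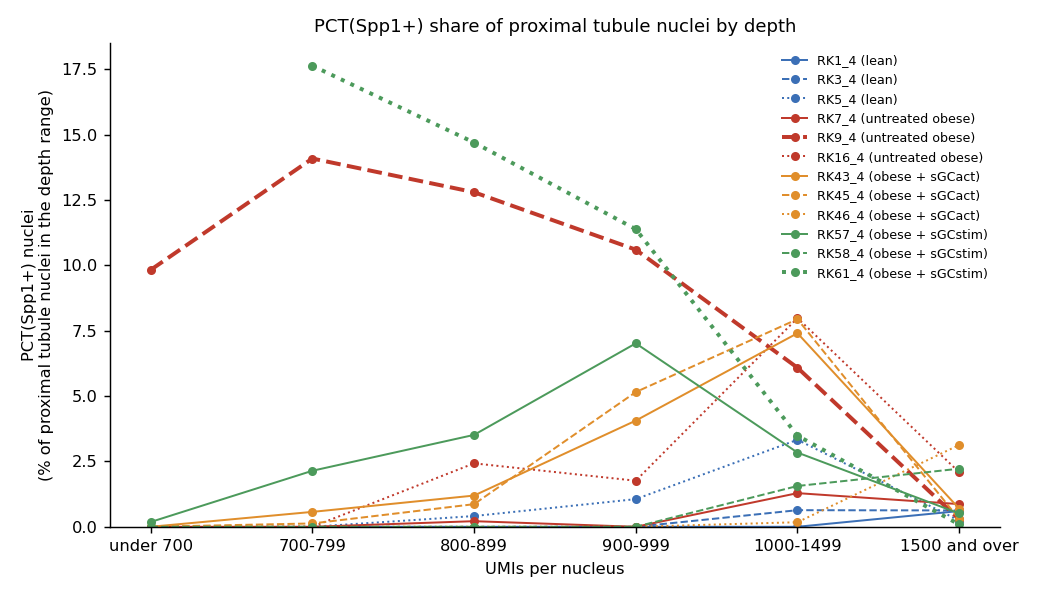
Share of PCT(Spp1+) among the proximal tubule nuclei of each rat (percent) in 6 ranges of UMIs per nucleus, with 1 line per rat, colours for groups and points drawn for at least 20 proximal tubule nuclei. RK9_4 and RK61_4 are highest at 700 to 800 UMIs, at 14.1 and 17.6%, and RK16_4, RK43_4 and RK45_4 between 1000 and 1500 UMIs.

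Among nuclei of at least 1000 UMIs, 1272 PCT(Spp1+) nuclei remained (18.8%), and their share separated obese from lean rats. It was 0.193, 0.285 and 0.283% of all such nuclei in the lean rats RK1_4, RK3_4 and RK5_4, and 0.602, 3.13 and 1.72% in the untreated obese rats RK7_4, RK9_4 and RK16_4. It was 1.44, 1.22 and 0.899% under sGCact and 0.540, 0.925 and 0.553% under sGCstim. All 9 obese rats lay above all 3 lean rats (27 of 27 pairs, exact permutation p = 0.009, the smallest that 9 rats against 3 allow). In limma the log odds differed by 1.43 (adjusted p = 0.015) for the 3 obese groups against lean and by 1.79 (adjusted p = 0.013) for untreated obese rats against lean. Among proximal tubule nuclei the differences were 1.24 (adjusted p = 0.048) and 1.47 (adjusted p = 0.043). The separation of obese from lean rats did not hold in narrower depth ranges of the proximal tubule. Between 1000 and 1500 UMIs the lean rat RK5_4 (3.33%) lay above RK7_4 (1.29%), RK46_4 (0.175%), RK57_4 (2.84%) and RK58_4 (1.56%). The remaining obese rats lay above it there. At 1500 UMIs and over RK9_4, RK45_4, RK57_4 and RK61_4 did not lie above every lean rat, and the remaining obese rats did. Depth was not matched between rats within the filter.

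Among nuclei with at most 1% mitochondrial UMIs, 1023 PCT(Spp1+) nuclei remained (15.1%). Their share of such nuclei was 0.040, 0.075 and 0.248% in the lean rats and 0.448, 5.44 and 0.889% in the untreated obese rats RK7_4, RK9_4 and RK16_4. It was 0.726, 1.40 and 0.831% under sGCact, and 0.530, 0.846 and 0.070% under sGCstim. RK61_4, which kept only 7 of its 1590 nuclei, fell among the lean rats, and the other 8 obese rats lay above all of them. The log odds differed by 2.05 (limma adjusted p = 0.035) for the 3 obese groups against lean and by 2.64 (adjusted p = 0.038) for untreated obese against lean. Both filters use values that differ between rats for all cell types, and their part in the difference was not tested. How many other clusters separated or were called under either filter is not given here. The filtered results therefore cannot be read as particular to PCT(Spp1+).

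PCT(Spp1+) nuclei held a median of 870 UMIs and 628 expressed genes, with quartiles of 820 and 953 UMIs. Outside RK9_4 and RK61_4 the median was 1278.5 UMIs and 871.5 genes. The median of a rat was 867 UMIs in RK9_4 and 827 in RK61_4, with quartiles at 823 and 924 UMIs and at 796 and 871 UMIs, and it ran from 1065 (RK45_4) to 2453.5 (RK46_4) in the other 10 rats, where the quartiles lay 210 to 892 UMIs apart. PCT(Spp1+) was deeper than PCT in 10 of 12 rats, RK9_4 and RK61_4 being the exceptions, and shallower than PST(S2) in 12 of 12.

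Depth did not separate the groups. Median UMIs per PCT(Spp1+) nucleus were 2187.5, 1696 and 1264.5 in the lean rats RK1_4, RK3_4 and RK5_4, and 1794, 867 and 1353 in the untreated obese rats RK7_4, RK9_4 and RK16_4. The difference was -0.39 on the log2 scale (SE 0.364, limma adjusted p = 0.404), or -0.10 without RK9_4 and RK61_4, in a contrast in which 16.7% of 24 clusters were called. Medians were 1131, 1065 and 2453.5 under sGCact and 1067, 1772 and 827 under sGCstim. Against untreated obese rats these differed by 0.16 (SE 0.364, adjusted p = 0.836, 8.33% called) and by -0.14 (SE 0.364, adjusted p = 0.957, 0% called) on the log2 scale. The 3 obese groups against lean differed by -0.38 (SE 0.297, adjusted p = 0.262, 12.5% called). Every group overlapped every other in this measure.

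At a fixed depth PCT(Spp1+) nuclei had about as many genes as PCT nuclei. Between 800 and 900 UMIs the median was 608 genes in both clusters in RK9_4 (2273 and 627 nuclei), and 630 against 632.5 in RK61_4 (903 and 356 nuclei). In RK43_4 it was 649.5 against 647, and in RK45_4, on 14 PCT(Spp1+) nuclei, 661.5 against 633. In the other 8 rats fewer than 10 PCT(Spp1+) nuclei lay in this range.

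The mitochondrial percentage of PCT(Spp1+) nuclei varied from rat to rat more than between groups. Its median was 1.79, 2.40 and 0.219% of the UMIs of a nucleus in the lean rats RK1_4, RK3_4 and RK5_4, and 0.045, 2.69 and 1.38% in the untreated obese rats RK7_4, RK9_4 and RK16_4. It was 1.55, 0.333 and 0% under sGCact (RK43_4, RK45_4, RK46_4), and 0.474, 0 and 5.39% under sGCstim (RK57_4, RK58_4, RK61_4). The highest and a lowest median stood in the same group, sGCstim, and all groups overlapped. On the scale of log2(percentage + 0.1) untreated obese rats differed from lean by -0.44 (SE 1.62, limma adjusted p = 0.919, 0% of 24 clusters called). The sGCact rats differed from untreated obese rats by -1.03 (SE 1.62, adjusted p = 0.913, 4.17% called) and the sGCstim rats by -0.31 (SE 1.62, adjusted p = 0.928, 0% called).

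Over all members the median mitochondrial percentage was 3.11%, and outside RK9_4 and RK61_4 it was 0.506%. In RK61_4 63.1% of PCT(Spp1+) nuclei were over 5% mitochondrial, in RK9_4 17.9%, and in RK46_4 and RK58_4 none. Against neighbouring clusters of the same rat, the median of PCT(Spp1+) was above that of PST(S2) and that of PTinj in 10 of 12 rats (equal in 2), and below that of PST(Spp1+) in 10 of 12. It was above that of PCT in 7 rats and below it in 5. These comparisons between clusters are descriptions, because the clusters were made from the same nuclei.

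Set against PCT of the same rat, the mitochondrial percentage of PCT(Spp1+) was higher in all lean and all untreated obese rats and lower in all sGCact rats. On the log2(percentage + 0.1) scale the differences were 0.557, 1.31 and 0.074 in lean rats and 0.538, 2.05 and 0.043 in the untreated obese rats RK7_4, RK9_4 and RK16_4. They were -0.36, -0.42 and -1.17 under sGCact and -0.70, -0.93 and 1.11 under sGCstim. Some of these rest on medians near 0: in RK7_4 0.045% against 0% in PCT, and in RK46_4 0% against 0.126%. With 1 added in place of 0.1 these rats stood at 0.064 and -0.17, and with 0.01 at 2.46 and -3.76. In RK16_4 (1.38 against 1.34%) and RK5_4 (0.219 against 0.203%) the medians were nearly equal. The test of the 9 obese rats against the 3 lean rats gave a difference of -0.63 (exact permutation p = 0.345). At a fixed depth of 800 to 900 UMIs the medians in RK9_4 were 2.68% for PCT(Spp1+) and 2.31% for PCT, and those in RK61_4 were 5.43 and 5.02%, beside 5.50% for PST(Spp1+).

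**Figure D5:**
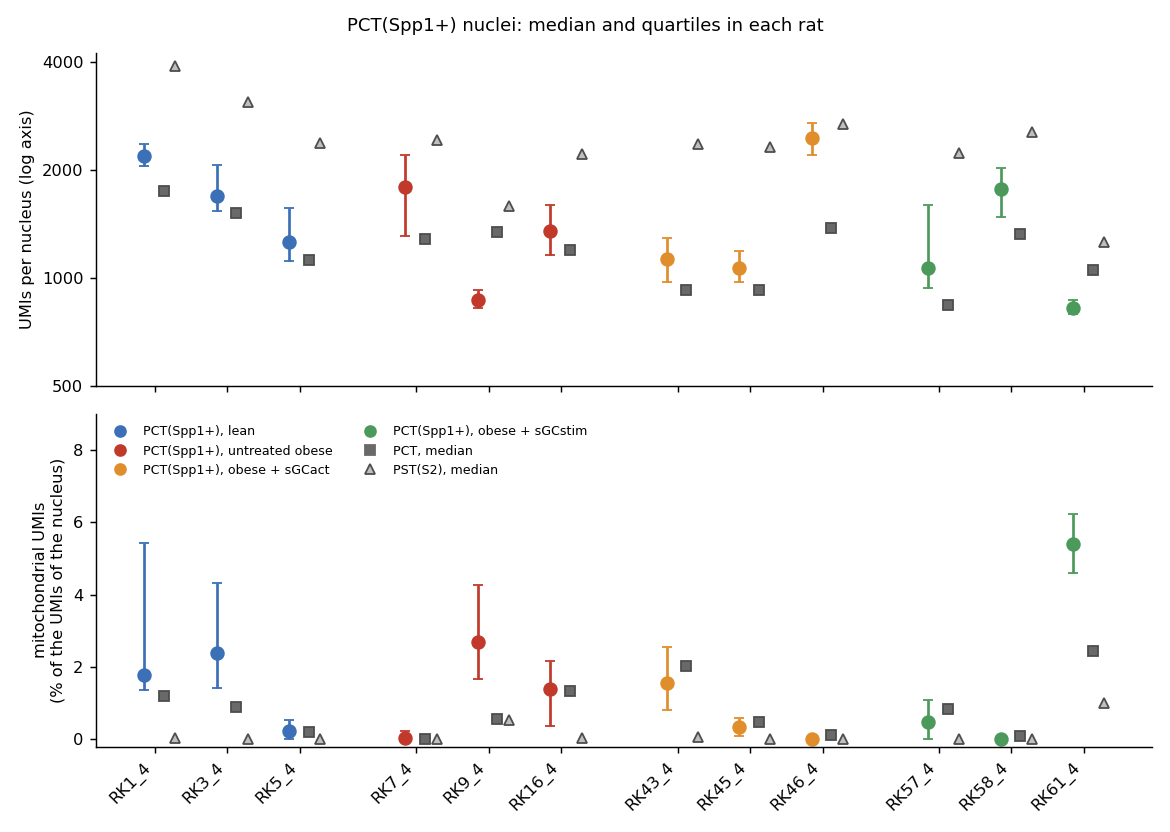
UMIs per nucleus (top, log axis) and mitochondrial UMIs in percent of the UMIs of a nucleus (bottom) of PCT(Spp1+) in each of 12 rats, as medians with quartiles as bars, beside the medians of PCT (squares) and PST(S2) (triangles). RK9_4 and RK61_4 have the lowest UMI medians, 867 and 827, and RK61_4 has the highest mitochondrial median, 5.39%.

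Cell-cycle scores, which sum the expression of genes of the S and the G2/M phase against a background and have no fixed range, were close to 0 in PCT(Spp1+). The mean S score of a rat was -0.0086, 0.0013 and -0.0044 in lean rats and -0.0112, -0.0027 and -0.0038 in untreated obese rats. It was 0.0043, 0.0058 and -0.00087 under sGCact and 0.0083, 0.0092 and -0.0005 under sGCstim. All 6 treated rats lay above all 3 untreated obese rats, and each treated group against that group gave an exact permutation p of 0.1, the smallest that 3 rats against 3 allow. The 9 obese rats differed from lean by 0.0049 (exact p = 0.282), and by -0.0031 with the median in place of the mean of a rat's nuclei. Such scores depend on depth. The order of the groups was not examined in other clusters, so it cannot be read as particular to PCT(Spp1+).

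The mean G2M score was -0.00038, -0.0191 and -0.0065 in lean rats and 0.0127, 0.0066 and -0.0029 in untreated obese rats. It was 0.0023, -6.3e-05 and -0.0080 under sGCact and -0.0028, -0.0045 and 0.0071 under sGCstim. The groups overlapped, and the 9 obese rats differed from lean by 0.0098 (exact permutation p = 0.109). With the median in place of the mean of a rat's nuclei the difference was 0.0118 (exact p = 0.036), before any adjustment. The deposited phase calls put 20.5 to 48.0% of the PCT(Spp1+) nuclei of a rat in G2M, and calls of this kind do not show division by themselves.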

How the data were processed

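Nuclei of 12 rats were analysed from the authors' deposited table, in which each nucleus has its rat, group, cluster, type and map coordinates. Cell Ranger was used by the authors for alignment to rn6, introns included (version 6 in the submitters' processing notes, while the study's methods name another version), followed by a correction for ambient RNA and by DoubletFinder. Nuclei with under 200 or over 3000 genes or over 15% mitochondrial UMIs had been excluded, and the rats were merged in Seurat and clustered at resolution 0.9 after Harmony on 30 components. UMIs per nucleus and expressed genes are deposited as counts without normalization, the mitochondrial measure in percent, the S and G2M values as scores by the authors, and names and coordinates as other values. No nucleus lay outside the authors' limits. Per-gene expression was not analysed here, and 0 columns of per-sample values went unused.

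The rat was the replicate. Shares were tested as log odds (0.5 nuclei added to the cluster, 1 to the total) by limma 3.58.1 in R 4.3.3, over 12 rats in 4 groups of 3 with 8 residual degrees of freedom, and p values were adjusted over 25 clusters, or 8 within the proximal tubule (Benjamini-Hochberg, threshold 0.05). Medians of UMIs (log2) and mitochondrial percentages (log2 of the percentage + 0.1, which understates changes of low values) were tested over the 24 clusters for which rats with at least 10 nuclei allowed a fit. Exact two-sided permutation tests used rats, with 20 splits for 3 against 3 and 220 for 9 against 3. The fit of the shares was also run on simulated counts with known changes. Clusters were drawn separately there, so the tie between shares of the same whole was not simulated. Tables were made with pandas 2.3.3, scipy 1.17.1 and scikit-learn 1.9.0, and figures with matplotlib 3.10.9.

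Nothing in the sources used here says how far rats of a group were processed apart. Wilson intervals (95%) cover counting error only. The cluster, the rats left out and the tests were chosen with earlier results of these data known. Named clusters are PCT(Spp1+), PCT, PST(Spp1+) and PTinj, and the cluster with most of its map neighbours, PST(S2). Alternatives were other scales (arcsine square root, centred log-ratio), edgeR 4.0.16, filters on UMIs and mitochondrial percentage, other minimum numbers of nuclei, the compared groups alone, and rats left out. Leaving out RK9_4 and RK61_4 together was added after the data were seen.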

Additional observations from a re-analysis of the deposited data

Results flagged for a closer look

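The mitochondrial percentage of PCT(Spp1+) relative to PCT of the same rat went one way in all rats of 2 groups and the opposite way in all rats of another. On the log2(percentage + 0.1) scale all 3 untreated obese rats (0.043 to 2.05) and all 3 lean rats (0.074 to 1.31) were above 0, and all 3 sGCact rats (-1.17 to -0.36) were below it. The group means differed by -1.53 between sGCact and untreated obese rats and by -1.30 between sGCact and lean rats. Groups of 3 that do not overlap always give the smallest exact permutation p, 0.1, so the test adds nothing to that separation. The other 4 pairs of groups differed by -1.05 to 0.480 with exact permutation p of 0.3 to 0.9. With the mean over nuclei in place of the median RK16_4 stood at -0.021, so the untreated obese rats no longer all lay above 0. Among nuclei of 500 to 1000 UMIs, where 6 rats had enough nuclei and no lean rat did, RK16_4 stood at -0.14 and RK9_4 at 0.294, beside -0.13 and -0.91 in the sGCact rats RK43_4 and RK45_4. Medians near 0 made the size of the difference depend on the amount added before the log in RK7_4 and RK46_4, while their signs stayed. The same comparison was not made for other clusters. The part of depth in this pattern was not tested further.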

How the results depend on the processing

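No paired analysis was possible because the rats of the table carry no replicate number. The higher share of PCT(Spp1+) in obese rats kept its direction under all alternatives, and its call did not stay on one side of the threshold. Among all nuclei untreated obese against lean rats passed the threshold with edgeR and TMM (4.22, a natural log ratio of shares), with at least 1000 UMIs (1.79) and with at most 1% mitochondrial UMIs (2.64). Without RK7_4, RK9_4 and RK61_4 the difference was 1.79. For the 3 obese groups against lean, leaving out these 3 rats gave 1.43, at least 1000 UMIs 1.43 and at most 1% mitochondrial UMIs 2.05. Within the proximal tubule these 3 alternatives gave 1.87, 1.47 and 2.42 for untreated obese rats and 1.34, 1.24 and 1.95 for the 3 obese groups. No difference for a drug passed the threshold, and the signs of several depended on the setting. For sGCact against untreated obese rats, leaving out RK9_4 and RK61_4 gave 0.45 among all nuclei, 0.513 within the proximal tubule and, for log2 UMIs, -0.12, and at least 1000 UMIs gave 0.049 within the proximal tubule. For sGCstim against untreated obese rats among all nuclei the centred log-ratio differed by -0.43, the natural log of the share by -0.30 and -1.24 in edgeR (total nuclei, TMM), and the log odds by -0.64 without 3 rats, -0.83 with at least 1000 UMIs, -1.41 with at most 1% mitochondrial UMIs and -0.57 with nuclei outside the proximal tubule as denominator, and the arcsine value by -0.015. Within the proximal tubule the same alternatives, except the last denominator, gave -0.31, -0.11, -0.28, -0.88, -0.73, -1.33 and -0.0035. For sGCact against sGCstim, leaving out 2 or 3 rats gave 0.205 among all nuclei and 0.168 within the proximal tubule, at least 1000 UMIs 0.584 and 0.781, and at most 1% mitochondrial UMIs 1.08 and 1.27. For log2 UMIs, sGCstim against untreated obese rats gave 0.023 without 3 rats and 0.0998 with at least 30 nuclei per rat. For the mitochondrial percentage, untreated obese against lean gave 0.373 without 3 rats and 0.827 with at least 30 nuclei, sGCstim against untreated obese 0.012 with a pseudocount of 1, and sGCact against sGCstim 0.792 without 2 or 3 rats. With medians in place of means the 9 obese rats differed from lean by -0.0031 in S score and by 0.0118 in G2M score, the latter with an unadjusted exact permutation p of 0.036.

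Leaving out 1 rat at a time gave the following ranges. Among all nuclei the log odds differed by 0.904 to 2.79 for untreated obese against lean, -1.44 to 0.45 for sGCact against untreated obese, -0.88 to 1.00 for sGCstim, -0.98 to 0.205 for sGCact against sGCstim and 1.39 to 2.02 for the 3 obese groups. Within the proximal tubule they differed by 0.648 to 2.44, -1.28 to 0.513, -0.80 to 0.993, -0.89 to 0.168 and 1.15 to 1.75. Log2 UMIs gave -0.63 to -0.10, -0.22 to 0.406, -0.45 to 0.102, -0.081 to 0.611 and -0.58 to -0.19. The mitochondrial percentage gave -1.37 to 0.827, -2.29 to 0.00081, -1.82 to 1.07, -2.10 to 0.792 and -1.81 to -0.33. The 9 obese rats against lean gave -0.92 to -0.30 for the percentage beyond PCT, 0.0025 to 0.0075 for the S score and 0.0046 to 0.0139 for the G2M score. Without RK7_4, which holds 25 members, the 3 obese groups passed within the proximal tubule as well (1.75, limma adjusted p = 0.022), and untreated obese rats gave 2.44 (adjusted p = 0.017). RK7_4 had the lowest share there, so the fits without it are not read as calls. Of 465 alternative values for 23 results, 17 newly passed the threshold (unadjusted for exact tests), 56 changed sign without passing it, and the others kept their direction and side of it. None of these 23 results passed with the settings used in the report, so none could lose a call. The exact permutation tests of the share, 9 obese rats against lean, were not among the 23. They gave unadjusted p of 0.027 among all nuclei and 0.036 within the proximal tubule. Leaving out RK9_4 and RK61_4 together was chosen after seeing the data. With 3 rats left out, RK16_4 alone stands for untreated obese rats and is assumed to vary like the others. Those 3 rats had the lowest and the highest shares of the obese rats, so that fit is not read as a call. A fit of the compared groups alone was not run separately for the 3 obese groups, which use all rats. The window of 500 to 1000 UMIs gave no lean contrast, since no lean rat had 10 nuclei in it. The cause of these dependences was not tested. The number of nuclei limits the precision of medians in rats with few members, down to 25 in RK7_4.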
